A study of Mus musculus with 4 samples.

Results

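The comparison described here set the array labelled proB acute lymphoblastic leukemia (proB ALL) against the array labelled as an acute leukemia of B/T biphenotypic type (B/T BAL), 2 of the 4 mouse arrays of the series. Both leukemias grew from hematopoietic stem or precursor cells transduced with AF4-MLL and with no second fusion, so the immunophenotype differed while the fusion did not. All genes with a probe set of 1 gene symbol entered, control probe sets left out. A gene counted as measured when its signal was above 189, the median signal of the series, on at least 1 of these arrays, which held for 11494 of 18193 genes.

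Each group was measured on 1 Affymetrix mouse expression array, with total RNA as the starting material. The remaining arrays held a mixed lineage leukemia, from cells that carried MLL-AF4 as well as AF4-MLL, and normal bone marrow as the control. The series title names C57BL6 mice. Leukemic cells were taken from the bone marrow of moribund animals after several months, typed by flow cytometry and not sorted, so each RNA could also hold normal cells of the host marrow. The age and sex of the animals, the vector and promoter that drove the fusion, and whether an RNA came from 1 animal or a pool are not stated in these sources. With 1 array a side there was no replicate error and no test, and the number of arrays limits the precision. All differences below are therefore differences between these arrays, and a smaller share of cells of a type cannot be told apart from less RNA per cell.

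MLL (Kmt2a) is a histone methyltransferase that keeps developmental genes active, and AF4 (Aff1) is a scaffold of the elongation complexes that release paused RNA polymerase. Their fusions arise from a chromosomal translocation typical of infant leukemia, and AF4-MLL is the reciprocal product of that translocation. Early B cells are recognised by the factors Ebf1 and Pax5 and the surrogate light chain genes Vpreb1 and Igll1. Thymocytes are recognised by the CD3 chains, the pre-T receptor and Notch signalling, and natural killer (NK) cells and cytotoxic T cells by granzymes, lectin-like receptors and the T-box factors Eomes and Tbx21.

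The array labelled proB ALL read high for killer lymphocyte genes, and the B/T BAL array read high for genes of early T cells. Across all measured genes, 1380 (12%) were at least 2-fold higher on the array labelled proB ALL and 1991 (17.3%) on the B/T BAL array, 29.3% in either direction. At least 8-fold, the counts were 168 genes (1.46%) and 190 genes (1.65%). The median difference, taken as log2(signal + 51.4) of the array labelled proB ALL minus the same of the B/T BAL array, was -0.17 over all measured genes, and 8123 genes (70.7%) lay within 2-fold. Counts past or within 2-fold and list medians are on this scale. Of the measured genes, 583 were above the floor of 189 on the array labelled proB ALL alone and 1370 on the B/T BAL array alone, and such genes passed through the array on which they were higher. Of the 6 pairs of arrays in the series, which share arrays with each other, this pair had the smallest share of genes past 2-fold, the other pairs ranging from 33.6% to 48.6%. Where 4 signals are given below, they are in the order array labelled proB ALL, B/T BAL, mixed lineage leukemia and normal marrow. A fold is the ratio of the deposited signals, and is written "at least" where the dimmer signal was at or below 189 and that value took its place.

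**Figure D1:**
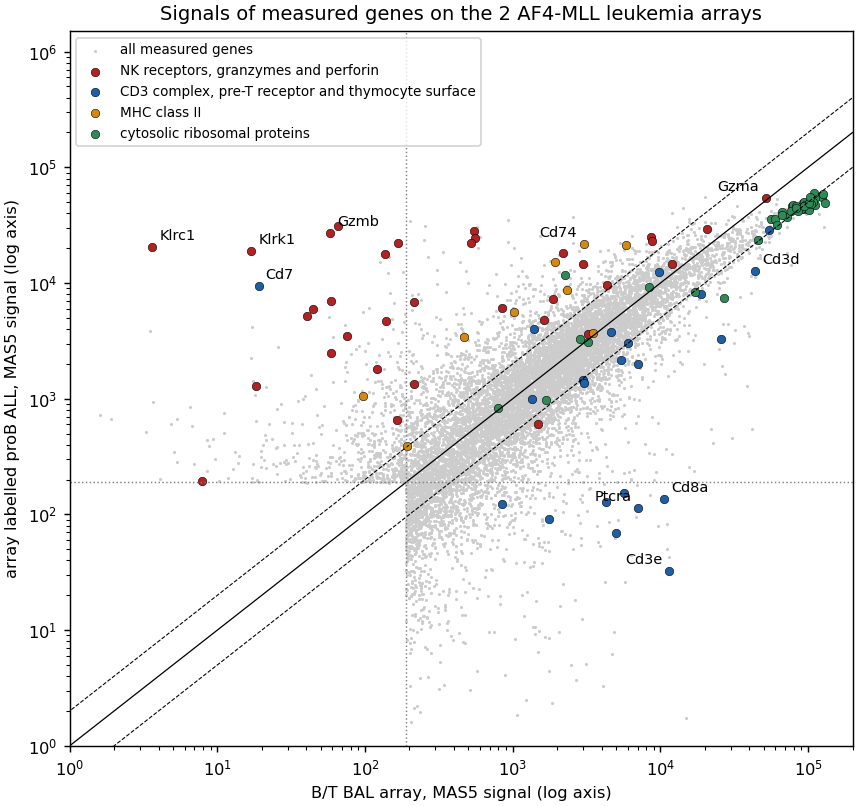
Signal of each of the 11494 measured genes on the B/T BAL array (horizontal, log axis) and on the array labelled proB ALL (vertical, log axis), 1 point a gene. Solid line, equal signals; dashed lines, 2-fold; dotted lines, the floor of 189. NK receptors and granzymes (red) lie above the upper dashed line or between the lines, except for Tnfsf10. Cd3e, Cd8a and Ptcra (blue) lie far below the lower one, and ribosomal proteins (green) run along the lower line at the bright end.

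The arrays shared 1 global scale, with a trimmed mean of 1000 each, but the control transcripts did not follow it. The 18 hybridisation control probe sets, for transcripts spiked into the hybridisation mix, had a median difference of -1.73, ranging from -2.12 to -1.26, so all of them were brighter on the B/T BAL array. The 27 labelling control probe sets, for bacterial transcripts that are carried through labelling, differed by more, with a median of -3.20 and a range from -4.08 to 0.58. The upper end was a TrpnX probe set at 32.0 and 4.42, and all TrpnX probe sets were far below the floor on both arrays. The other labelling controls lay between -4.08 and -1.76, all brighter on the B/T BAL array. Probe sets for 18S ribosomal RNA differed by -2.17, -2.77 and -3.36. The hybridisation controls were also tried as the scale of both arrays, an alternative chosen after seeing the data. On that scale, 8765 genes were at least 2-fold higher on the array labelled proB ALL and 297 on the B/T BAL array. This put 96.7% of calls in the first direction, against 40.9% on the deposited scale. The median of all genes then moved to 1.52, and the medians of 19 of the 45 gene lists turned sign, among them 3 of the 7 that were at least 2-fold toward the B/T BAL array. Of the 1991 genes higher on the B/T BAL array, 1239 differed by less than the controls did and 752 by more. The ratio of 3' to 5' signal of the Actb control probe sets, a measure of RNA integrity, was 2.47 on the array labelled proB ALL and 4.72 on the B/T BAL array, beside 1.28 and 1.14 for Gapdh. How far scale and RNA quality entered the differences below was not tested.

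**Figure D2:**
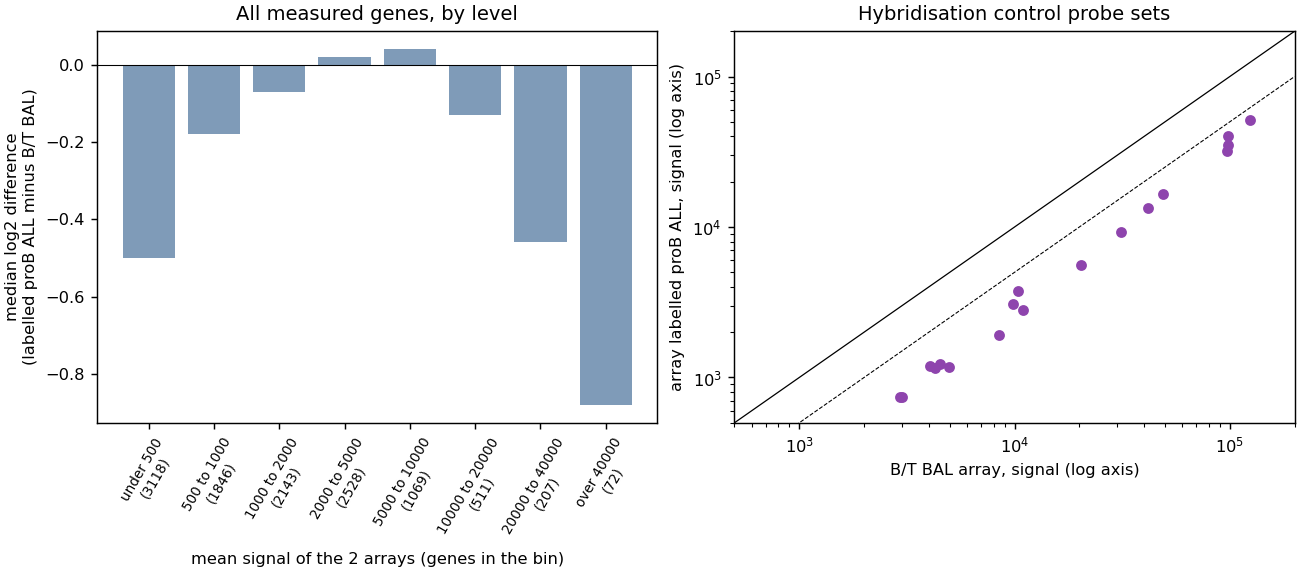
Left, median log2 difference (array labelled proB ALL minus B/T BAL) of all measured genes, binned by their mean signal on these arrays, with the number of genes in brackets. Right, signals of the 18 hybridisation control probe sets on the B/T BAL array (horizontal, log axis) and the array labelled proB ALL (vertical, log axis), with lines at equality (solid) and 2-fold (dashed). The median was -0.50 in genes with a mean signal under 500, 0.02 between 2000 and 5000 and -0.88 above 40000, and all control points lie below the dashed line.

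Defining genes of an early B cell were below the floor on the array labelled proB ALL. Ebf1, which starts the B-lineage program, gave 128, 117, 138 and 697. Pax5, which commits cells to it, gave 99.2, 58.6, 118 and 185. The surrogate light chain genes gave 30.1, 54.1, 97.3 and 11111 for Vpreb1 and 64.6, 151, 52.7 and 4111 for Igll1. All of these were below the floor on both AF4-MLL-only arrays. Vpreb1 and Igll1 were bright in normal marrow alone, where Pax5 was just below the floor. Of the 7 early B-cell markers analysed here, 3 were above the floor on the array labelled proB ALL (Cd79a, Cd79b and Blnk, each lower than in normal marrow), with a summed signal of 3673 against 1191 on the B/T BAL array, 5457 on the mixed lineage array and 29794 in normal marrow. The same 3 were above the floor on the B/T BAL array, Cd79a at 216, Cd79b at 352 and Blnk at 243, and its sum was the lowest of the 4 arrays, as was its sum of 831 over 3 mature B-cell markers. The longer list of early B-cell genes, which shares members with T-cell precursors, gave 5 of 19 measured at least 2-fold higher on the array labelled proB ALL and 9 on the B/T BAL array. The largest of these 9 were Rag1, Dntt, Sox4 and Cd24a, described below. Of the 19 measured genes of the list, 4 were above the floor on the B/T BAL array alone. The list's median of 0.12 lay between -1.02 and -0.52 with the floor at the 25th or 75th percentile or with none, over the mean of probe sets, and without probe sets marked for cross-hybridisation. By contrast all 7 NK markers were above the floor there, with a summed signal of 102596 against 855 on the B/T BAL array, 2387 on the mixed lineage array and 3906 in normal marrow. The T-cell markers were above the floor in 5 of 9 cases on the array labelled proB ALL and in 9 of 9 on the B/T BAL array, with summed signals of 49267 and 164550. In these markers the data went against the proB label and against the B part of the B/T label, so both arrays are called by their labels throughout. Some other genes of the marker lists, among them Lck, Tcf7, Ighd, Klrb1c and Hbb-bt, were not analysed here.

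**Figure D3:**
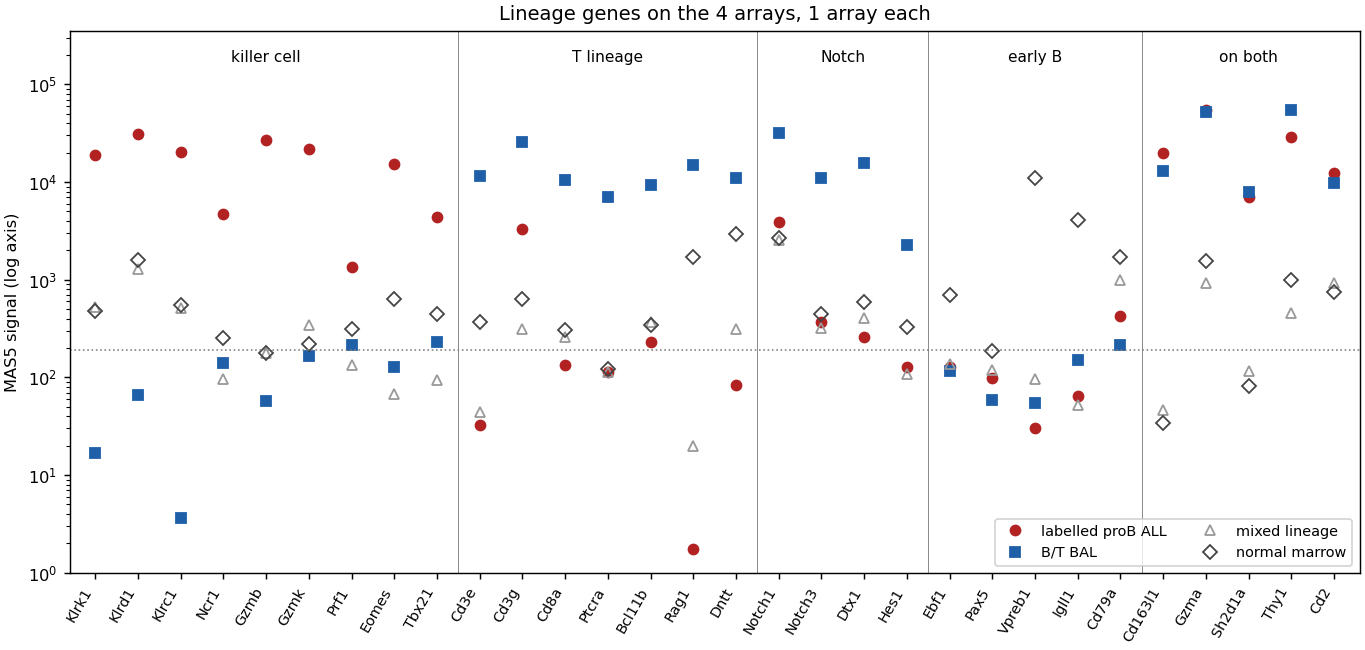
MAS5 signal (log axis) of lineage genes on the 4 arrays, 1 array a group: array labelled proB ALL (filled circles), B/T BAL (filled squares), mixed lineage leukemia (open triangles) and normal marrow (open diamonds). The dotted line is the floor of 189. Killer cell genes are highest on the array labelled proB ALL, T-lineage and Notch genes on the B/T BAL array, the early B genes Vpreb1 and Igll1 in normal marrow, and the genes of the right-hand group on both AF4-MLL leukemias.

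Receptors of NK cells were bright on the array labelled proB ALL. Of 31 listed genes, 23 were on the array and 17 measured, 6 of them above the floor on both arrays and 11 on the array labelled proB ALL alone, through which they passed. The 17 measured genes were at least 2-fold higher on the array labelled proB ALL, with a median difference of 4.64 against -0.17 over all measured genes. Over the 23 genes with no floor, 17 were at least 2-fold higher there and none on the B/T BAL array, with a median of 2.78. The inhibitory receptor Klrc1 (NKG2A) gave 20421, 3.61, 511 and 550.3, a difference of at least 108-fold. Its partner Klrd1 (CD94) gave 31042, 65.8, 1294 and 1597, or at least 165-fold. The activating receptor Klrk1 (NKG2D) gave 19005, 17.0, 521 and 481, or at least 101-fold. Each of these was bright on the array labelled proB ALL, near background on the B/T BAL array and between these values on the other arrays. Klrb1f gave 17671, 136, 3175 and 2443 and the natural cytotoxicity receptor Ncr1 gave 4694, 139, 96.9 and 251. The Ly49 receptor genes Klra7 (5961 against 44.5), Klra8 (2502 against 58.6) and Klra5 (1289 against 18.2) were on the same side, as were Klre1 (7039.6 against 58.6) and Cd244a (6815 against 215) of the SLAM family. The Ly49 and Klrc genes have close paralogs, so how probes divide signal among them is uncertain. The adaptors that couple these receptors to signalling differed by less. Tyrobp (DAP12) read 22971, 8718, 63813 and 34839, Fcer1g 24988, 8587, 50214 and 26812 and Hcst (DAP10) 7331, 1867, 8659 and 2950.1. These adaptors are also made by myeloid cells, and the mixed lineage array read above the array labelled proB ALL for all of them.

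The granule contents of killer cells followed the receptors for most genes. Of 17 measured genes of granzymes, perforin and their partners, 12 were at least 2-fold higher on the array labelled proB ALL and 1 on the B/T BAL array. Their median difference was 2.39. Of the 17, 5 were above the floor on the array labelled proB ALL alone, through which they passed. Over all 22 genes with no floor, 12 were higher on the array labelled proB ALL and 2 on the B/T BAL array. The median was then 1.59. Gzmb, a protease that triggers apoptosis in the target, gave 26953, 57.8, 179 and 178, or at least 143-fold. Gzmk gave 22046, 168, 347 and 219, Gzmm 1805, 121, 237 and 158, and Fasl, the death ligand, 5173, 40.2, 24.6 and 214. Gzma, the remaining major granzyme, did not follow them: it gave 54327, 52157, 931 and 1556, about equal on both leukemias and far above both other arrays. The granule protein Nkg7 gave 27934, 550.3, 7892 and 7755 and the cathepsin Ctsw 24654, 559, 224 and 1015. Serpinb9, which protects killer cells from their own granzyme B, gave 22321, 519, 359 and 702. Prf1, the pore-forming perforin, gave 1344, 215, 135 and 309.7, while its other probe set was about equal on these arrays, with signals of 232 and 255. Genes of the secretory machinery that other blood cells share were closer, with Lamp1 at 14479.9 against 11996, Srgn at 29137 against 20708 and Unc13d at 3602 against 3236. The single measured gene of the list past 2-fold on the B/T BAL array was Tnfsf10 (TRAIL), at 604, 1480.4, 44.5 and 402. The tandem genes Gzmd, Gzme, Gzmf, Gzmg and Gzmn were below the floor on both arrays.

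Promoter windows are shown for a granzyme and a receptor that were bright on the array labelled proB ALL, as the sequence context of this difference. They run from 250 bases before to 50 bases after the gene start, 5′ to 3′ on the gene's strand, from RefSeq on build GRCm38.p6, with matches to the RUNX-type motif TGTGGTT in capitals. Gzmb lies on the minus strand at chr14:56262285-56262584 and its match starts at position -34 from the gene start. Klrk1 lies on the minus strand at chr6:129623815-129624114 and its match starts at -129.
Gzmb: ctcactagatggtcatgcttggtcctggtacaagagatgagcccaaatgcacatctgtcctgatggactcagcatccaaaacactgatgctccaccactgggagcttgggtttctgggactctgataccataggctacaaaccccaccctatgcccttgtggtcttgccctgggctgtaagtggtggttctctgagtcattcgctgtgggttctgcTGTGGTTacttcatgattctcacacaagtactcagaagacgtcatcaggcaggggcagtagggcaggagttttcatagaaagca
Klrk1: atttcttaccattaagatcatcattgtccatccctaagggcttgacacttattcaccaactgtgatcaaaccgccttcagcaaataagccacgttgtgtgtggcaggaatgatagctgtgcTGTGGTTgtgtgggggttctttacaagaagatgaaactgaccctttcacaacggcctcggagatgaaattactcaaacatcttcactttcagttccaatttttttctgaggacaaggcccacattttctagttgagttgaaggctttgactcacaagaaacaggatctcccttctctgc
On either strand, this motif was found in 5.27% of 32851 promoter windows, or in 6.09% of the 27025 genes with a window, in 5 of the 15 granzyme-list genes with a window (Gzma, Gzmb, Gzmc, Srgn and Rab27a) and in 4 of 14 NK receptor genes (Ncr1, Klrk1, Klre1 and Cd160). Gzma and Srgn hold the motif and did not differ by 2-fold. The motifs named in this text were chosen after other motifs had been tried, and a match describes these letters in the window and nothing further.

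Transcription factors of killer lymphocytes divided into opposite directions. Of 14 measured, 9 were at least 2-fold higher on the array labelled proB ALL and 2 on the B/T BAL array, with a median of 1.72. Of the 14, 4 were above the floor on the array labelled proB ALL alone, through which they passed. Over all 15 genes with no floor, the counts were 9 and 3, with a median of 1.67. Eomes, which with Tbx21 directs the cytotoxic program, gave 15148, 127, 67.4 and 641, or at least 80.3-fold, and its second probe set gave 7599.9 and 56.3. Tbx21 (T-bet) gave 4410.3, 233, 93.7 and 449. Bhlhe40 gave 4614, 182, 2352 and 1183, Prdm1 (Blimp-1) 1116, 114, 479.7 and 277 and Nfil3 2005, 457, 2332 and 1009.7. Runx3, which represses Cd4 and drives cytotoxic genes, gave 3235, 501, 1054 and 967. These factors were higher on the array labelled proB ALL, all but Nfil3 being also above both other arrays. The opposite pair was Ikzf2 (Helios), at 198, 9026, 723 and 1066, and Gata3, at 432, 2567, 76.1 and 29.3, which are T-lineage factors as well. Zeb2, Hopx and Tox lay within 2-fold.

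Cytokine receptors and signalling genes were mixed, with a small set of large differences. Of 33 measured, 13 were at least 2-fold higher on the array labelled proB ALL and 4 on the B/T BAL array, with a median of 0.56. Il2rb, the beta chain through which interleukins 2 and 15 signal, gave 15343, 438, 43.0 and 814. Il18r1 and Il18rap, the chains of the IL-18 receptor, gave 23633, 249.6, 1020.5 and 1604 and 9520.5, 694, 6658 and 3125. Stat4, which relays IL-12, gave 8073, 227, 1744 and 1234, and Socs2, a target of STAT5, 12227, 142, 314 and 479. Each of these genes was higher on the array labelled proB ALL than on the other 3 arrays, Il18rap by the least. The alpha chains did not follow: Il2ra gave 1882, 1921, 117 and 179, Il15ra 927, 926, 78.9 and 400.4 and Il7r 13196, 8906, 1642 and 2486, each within 2-fold between these arrays. On the other side stood Il6st, the shared gp130 chain, at 507, 2911, 626 and 1207, and Stat5a at 1299, 6276, 983 and 2098.

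Receptors for migration were mostly higher on the array labelled proB ALL, 16 of 23 measured against 1, with a median of 1.74. Of the 23, 6 were above the floor on the array labelled proB ALL alone. Over all 29 genes with no floor, the counts were 17 and 2, with a median of 1.28. Cxcr3, the receptor of effector lymphocytes for interferon-induced chemokines, gave 16856, 266, 699 and 1016, or 63.4-fold. Ccr2 gave 11909.7, 768, 8925 and 3169, and the egress receptor S1pr1 611, 22.5, 338 and 292. Ccr7, which guides cells to lymph nodes, gave 819.9, 25.2, 337 and 423. All of these were above both other arrays, Ccr2 by the least. The single measured gene past 2-fold in the other direction was Ccr9, a gut and thymus homing receptor, at 1643, 3859, 1148 and 713. The marrow retention receptor Cxcr4 gave 11908, 7376, 13733 and 8058. Among secreted factors, 10 of 21 measured were higher on the array labelled proB ALL and 4 on the B/T BAL array. Their median was 0.89. Of the 21, 5 were above the floor on the array labelled proB ALL alone and 4 on the B/T BAL array alone. Such genes passed through the array on which they were higher. Over all 29 genes with no floor, the counts were 11 and 4, with a median of 0.04. Ccl5 gave 30823, 255, 2399 and 4432, Xcl1 1471, 103, 61.8 and 243 and Ifng 575, 49.1, 34.5 and 6.48, all products of activated killer cells. The inflammatory genes Cxcl2 (13.6, 455, 1140.5 and 357), Tnf (272, 1033, 5576 and 106) and Ccl2 (63.3, 321, 148 and 53.2) were higher on the B/T BAL array than on the array labelled proB ALL.

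The T-cell receptor complex showed an uneven pattern on the array labelled proB ALL. Cd3e, a chain without which no receptor reaches the surface, gave 32.3, 11474, 43.8 and 372, or at least 60.8-fold, and was far below the floor on the array labelled proB ALL. Cd3g gave 3290.5, 25806, 314 and 632 and Cd3d 12582, 43499.8, 765 and 1002, lower than on the B/T BAL array but above both other arrays. Cd247, the zeta chain that NK receptors also use, gave 3788, 4601, 78.2 and 216 and lay within 2-fold. Of the 4 measured genes 3 were past 2-fold toward the B/T BAL array and none toward the other, with a median of -2.37, or -0.64 on the scale of the hybridisation controls. Trgv4, a gamma chain variable segment, gave 4382, 28524, 148 and 194, and Cd163l1, a scavenger receptor of gamma delta T cells, 19681, 13017, 45.9 and 34.2. Trgv4 was thus also above both other arrays in the leukemia labelled proB ALL.

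Genes of the thymocyte surface were mostly higher on the B/T BAL array, 12 of 18 measured against 2, with a median of -1.26, which turned to 0.46 when the hybridisation controls set the scale. Of the 18, 7 were above the floor on the B/T BAL array alone and 1 on the array labelled proB ALL alone, through which they passed. Ptcra, the pre-T alpha chain of the receptor that tests a new beta chain, gave 114, 7093, 115 and 123, or at least 37.6-fold. The coreceptor chains gave 135, 10607, 258 and 307 for Cd8a and 68.6, 4987, 55.4 and 236 for Cd8b1, and all 5 probe sets of Cd8a were on the same side. Cd5, which tunes receptor signals, gave 128, 4297, 239.7 and 299, and Cd4 122, 848, 57.2 and 42.9. In all of these the B/T BAL array stood above the other 3 arrays. Thy1, Cd2 and Cd28 were high on both AF4-MLL leukemias, with Thy1 at 28959, 54065, 453 and 995. The 2 genes in the other direction were Cd96 at 4003, 1394, 44.0 and 252, a receptor of NK and T cells, and Cd7 at 9369, 19.0, 517 and 582, or at least 49.7-fold.

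Recombination genes held large differences toward the B/T BAL array in a few members. Rag1, a subunit of the V(D)J recombinase, gave 1.76, 14988, 19.8 and 1721, or at least 79.5-fold, and was at background on the array labelled proB ALL. Dntt, the template-free polymerase that adds bases at the joints, gave 82.8, 11061, 314 and 2913, and its 3 probe sets were on the same side. Rag2, the partner of Rag1, gave 7.81, 201, 30.4 and 122, only just above the floor on the B/T BAL array. The ligase Lig4 gave 297, 3119, 687 and 482. Xrcc6 (Ku70) gave 4252, 37035, 864 and 2541, but its other probe set gave 275 and 185. The joining genes Xrcc4, Xrcc5, Prkdc, Poll and Polm lay within 2-fold. Of the 14 genes of the list, 5 were at least 2-fold higher on the B/T BAL array and none on the array labelled proB ALL, with a median of -0.36. Of the 14, 4 were above the floor on the B/T BAL array alone, through which they passed. With the hybridisation controls as scale, 8 of 13 measured were higher on the array labelled proB ALL and 4 on the B/T BAL array. The median of the list then turned to 1.40. Normal marrow, which holds recombining B-cell precursors, read above the array labelled proB ALL for Rag1, Dntt and Rag2.

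The promoters of Ptcra and Rag1 are printed for the pre-T receptor and the recombinase, with the E-box CAGCTG, which reads the same on either strand, in capitals. The Ptcra window is on the minus strand at chr17:46763663-46763962, with 3 matches. The Rag1 window is on the minus strand at chr2:101649483-101649782, with a match at -128.
Ptcra: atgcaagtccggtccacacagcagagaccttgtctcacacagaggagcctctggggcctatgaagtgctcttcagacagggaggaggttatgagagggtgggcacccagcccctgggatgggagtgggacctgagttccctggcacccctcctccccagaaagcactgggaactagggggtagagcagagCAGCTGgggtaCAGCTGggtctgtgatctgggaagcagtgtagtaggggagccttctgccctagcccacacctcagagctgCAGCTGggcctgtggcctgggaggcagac
Rag1: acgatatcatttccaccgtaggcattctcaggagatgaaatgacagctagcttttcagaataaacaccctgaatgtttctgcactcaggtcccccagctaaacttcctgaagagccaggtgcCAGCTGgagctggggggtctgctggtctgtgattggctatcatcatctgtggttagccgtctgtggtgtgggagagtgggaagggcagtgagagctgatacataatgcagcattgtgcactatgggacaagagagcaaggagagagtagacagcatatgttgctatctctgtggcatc
This motif was found in 16.3% of all 32851 windows, or in 18.3% of genes, in 4 of 8 genes of the thymocyte surface list with a window (Ptcra, Cd8a, Satb1 and Arpp21) and in 4 of 12 recombination genes (Rag1, Lig4, Polm and Atm). Polm and Atm lay within 2-fold between the arrays.

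Notch receptors and targets were higher on the B/T BAL array for 8 of 14 measured genes and on the array labelled proB ALL for 2, with a median of -1.91, or -0.79 with 6 genes past 2-fold on each side on the scale of the hybridisation controls. Notch1, the receptor that commits precursors to the T lineage, gave 3907, 32026, 2562 and 2682, or 8.2-fold, and its second probe set gave 361 and 2734. Notch3 gave 371, 10902, 318 and 445. The direct targets Dtx1 and Hes1 gave 257, 15724, 409 and 589 and 127, 2288, 108 and 327, and Heyl gave 167, 3290.3, 33.9 and 292. For these genes the B/T BAL array stood alone, the array labelled proB ALL lying within 2-fold of normal marrow or below it. Notch2, which marginal zone B cells and myeloid cells use, went the other way at 7221, 1175, 16048 and 3673, as did the fringe glycosyltransferase Lfng at 1429, 282, 486 and 538. Nrarp, another target, gave 4042, 2076, 212 and 1119 and lay within 2-fold of the B/T BAL array. The RBPJ-type motif GTGGGAA was found in 2 of 11 promoter windows of this list, Hes5 and Lfng, and in 6.38% of all windows, or 7.25% of genes.

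T-lineage transcription factors included several of the largest differences. Of 18 measured, 2 were at least 2-fold higher on the array labelled proB ALL and 9 on the B/T BAL array, with a median of -1.07 that became 0.63 on the scale of the hybridisation controls. Bcl11b, which secures T-cell commitment, gave 231, 9352, 370.3 and 340.4, and its 4 probe sets were on the same side. Sox4 gave 3516, 39714, 1695 and 5255, Lef1, a nuclear partner of beta-catenin, 3199, 16719, 222 and 687, and Id3, an inhibitor of E proteins, 224, 2515, 157 and 479. These were higher on the B/T BAL array than on any other array. Ikzf1 (19092, 20817, 22374 and 12347), Ikzf3 (7333, 7549, 845 and 2031), Ets1 (17169, 34091, 11133 and 7796) and Tcf12 (10061, 19945, 4261 and 4385) lay within 2-fold.

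Proximal T-cell receptor signalling was divided, with 5 of 24 measured genes higher on the array labelled proB ALL, 7 on the B/T BAL array and a median of 0.04. The adaptor Lat gave 4436, 26454, 106 and 765 and the kinase Zap70 1849.7, 7311, 136 and 616, both highest on the B/T BAL array yet above the other arrays in the leukemia labelled proB ALL too. The calcium-dependent kinase Camk4 gave 50.2, 11053, 37.9 and 52.6 and the phospholipase Plcg1 419, 6028, 554 and 1543. Prkcq, the kinase that links the receptor to NF-kappaB, went the other way at 9828, 3151, 247 and 673, as did its downstream partner Malt1 at 4022, 1032, 3124 and 1592 and the adaptor Sh2d2a at 8057, 1626, 43.0 and 59.7. The kinase Fyn gave 6549.5, 3283, 659 and 815 and Lcp2 (SLP-76) 6594, 6302, 5948 and 4264, within 2-fold.

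**Figure D4:**
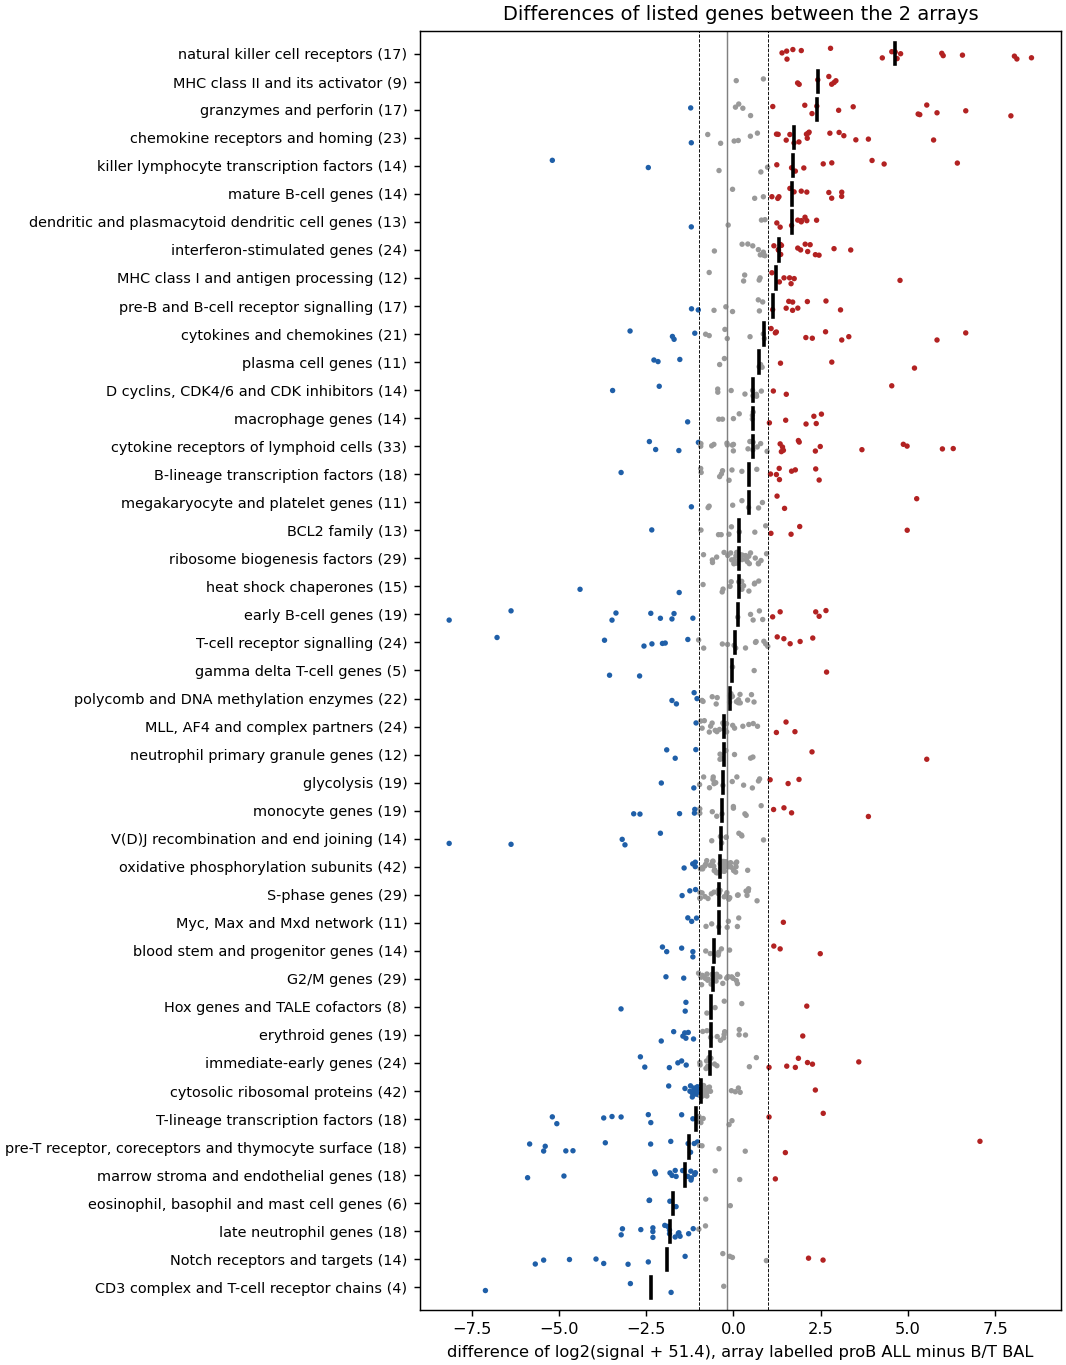
Difference of log2(signal + 51.4), array labelled proB ALL minus B/T BAL, for the measured genes of 45 lists (number measured in brackets), 1 point a gene, red where at least 2-fold higher on the array labelled proB ALL, blue where at least 2-fold higher on the B/T BAL array. Black bars are list medians, dashed lines 2-fold, and the grey line the median of all measured genes, -0.17. List medians run from 4.64 for NK receptors to -2.37 for the CD3 complex, and many lists hold genes on both sides.

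Genes of later B-cell stages were higher on the array labelled proB ALL, though several were lower than in normal marrow. Of 14 measured mature B-cell genes, 11 were at least 2-fold higher on the array labelled proB ALL and none on the B/T BAL array. Their median was 1.68. Of the 14, 6 were above the floor on the array labelled proB ALL alone, through which they passed. Over all 17 genes with no floor, 12 were higher on the array labelled proB ALL and 1 on the B/T BAL array. The median was then 1.30. Cd79b, a signalling chain of the B-cell receptor, gave 2484, 352, 3051 and 6035, Ms4a1 (CD20) 721, 261, 2746 and 5634 and Bank1 1801, 169, 2951 and 3289.6. The array labelled proB ALL was below normal marrow for each. The lymphotoxin chain Ltb gave 14311, 1619.7, 7804 and 8620.3 and Cd83 1392, 117, 529.6 and 801, above normal marrow. Of 17 measured genes of B-cell receptor signalling, 9 were higher on the array labelled proB ALL and 2 on the B/T BAL array, with a median of 1.12, among them the kinases Syk (4069, 1219, 6398 and 5435) and Btk (1117, 358, 3213 and 4954) and the lipid kinase subunit Pik3cd (8513, 1921, 2527 and 4689.7). B-lineage transcription factors gave 8 of 18 against 1 and a median of 0.46. Spib gave 1549.8, 240.3, 991 and 5977 and Bach2 1945, 338, 603 and 2342. Aff3, a relative of AF4 expressed in B cells, gave 7086, 2989, 774 and 1935, and its other probe set went the other way at 135 and 411. The heavy chain gene Ighm was bright on both, at 21174, 19421, 9162 and 40104, as was the joining chain Jchain at 25231, 14247, 5382 and 20477. Cd24a, a glycoprotein carried by many immature blood cells, was higher on the B/T BAL array at 3017, 31565, 52736 and 52264.

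Antigen presentation and interferon-stimulated genes were higher on the array labelled proB ALL. Among MHC class II genes 7 of 9 measured were at least 2-fold higher there and none on the B/T BAL array, with a median of 2.42. The invariant chain Cd74 gave 21778, 3049, 13732 and 12010.2 and H2-Eb1 15208, 1942, 9935 and 7080.3. Their activator Ciita gave 393, 193, 349 and 392, a difference of 0.86 on the log2(signal + 51.4) scale. Dendritic cell genes moved with them, 9 of 13 against 1 with a median of 1.67, all 3 of the dendritic markers Siglech, Flt3 and Itgax being higher on the array labelled proB ALL, with summed signals of 3668 and 906. Of the 13, 2 were above the floor on the array labelled proB ALL alone. The part of dendritic or B cells in the class II signal was not tested. For class I, 7 of 12 were higher on the array labelled proB ALL and none on the B/T BAL array, with a median of 1.21. Nlrc5, the transactivator of class I genes, gave 9742, 307, 557 and 1352, or 31.8-fold, and H2-K1 gave 44581, 14154, 29283 and 35517. B2m, the light chain, gave 38023, 30398, 47375 and 32238, and the immunoproteasome subunit Psmb8 23598, 19267, 11332 and 7259, each within 2-fold. Of 24 measured interferon-stimulated genes, 15 were higher on the array labelled proB ALL and none on the B/T BAL array, with a median of 1.32. Of the 24, 4 were above the floor on the array labelled proB ALL alone, through which they passed. Over all 26 genes with no floor, the median was 1.29. Trim30a gave 3507, 295, 1937 and 3195, the GTPase Gbp2 2323, 382, 385 and 1136 and the RNA sensor Ifih1 (MDA5) 1693, 329, 2841 and 2501. The array labelled proB ALL was close to normal marrow for Trim30a and Oas1a (3481, 798, 2466 and 3734), and the B/T BAL array was below it. Rsad2 (1527, 820.4, 1038 and 45401) and Isg20 (630.4, 943, 435 and 23752) were bright in normal marrow alone.

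For Trim30a and Gbp2, promoter windows are given with the interferon-response type motif GAAANNGAA in capitals, found in both on the strand opposite to the gene. Trim30a lies on the minus strand at chr7:104465144-104465443, with the match at -35. Gbp2 lies on the plus strand at chr3:142620413-142620712, with the match at -58.
Trim30a: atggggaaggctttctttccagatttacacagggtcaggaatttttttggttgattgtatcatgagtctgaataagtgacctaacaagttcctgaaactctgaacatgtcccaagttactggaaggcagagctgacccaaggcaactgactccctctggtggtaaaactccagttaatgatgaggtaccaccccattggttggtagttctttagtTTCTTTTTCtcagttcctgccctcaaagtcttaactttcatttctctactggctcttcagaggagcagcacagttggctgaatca
Gbp2: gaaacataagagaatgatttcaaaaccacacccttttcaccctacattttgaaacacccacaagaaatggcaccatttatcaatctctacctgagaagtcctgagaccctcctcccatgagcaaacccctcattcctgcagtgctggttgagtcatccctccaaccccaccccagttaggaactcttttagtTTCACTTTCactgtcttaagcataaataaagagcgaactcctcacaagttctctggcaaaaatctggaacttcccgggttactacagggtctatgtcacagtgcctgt
Searched on both strands, the motif was in 8.56% of the 32851 windows, or 9.76% of genes, and in 11 of the 19 interferon-stimulated genes with a window, among them Rsad2, Ifit1, Oas1a and Ifih1.

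A group of 18 genes was shared by these leukemias and low elsewhere, chosen after their values were seen as genes within 2-fold between the AF4-MLL-only arrays and at least 8-fold above both other arrays on each. Cd163l1, Gzma and Thy1, given above, belonged to it. Sh2d1a, the SLAM adaptor SAP of T and NK cells, gave 7061, 7934, 116 and 81.6. Trat1, a T-cell receptor adaptor, gave 1588, 2907, 27.2 and 59.4, and Nlrc3, a restraint on T-cell signalling, 4699, 5093, 342 and 196. Il2ra, Cd247, Cd2 and Cd28 were further genes of T and NK cells in the group, together with the cytokine receptor Il27ra at 834, 1268, 49.1 and 51.4. The receptor Gpr25 gave 3754, 4829, 47.2 and 104. Others have no lymphocyte role known here: Ddc, an enzyme of dopamine synthesis, gave 6216, 3309.5, 54.0 and 232, and the germline gene Khdc1a 3036, 1754, 40.7 and 7.22. Nsg2, Heg1, Rras2 and Tecpr1 were the remaining members.

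Survival genes and D cyclins held some large differences, while the S-phase and G2/M lists were close on the deposited scale. Bcl2, which blocks mitochondrial apoptosis, gave 19896, 581, 462 and 1398, or 34.2-fold, and its 5 probe sets were on the same side. Within its family 4 of 13 measured were at least 2-fold higher on the array labelled proB ALL and 1 on the B/T BAL array, with a median of 0.17. Bmf, a BH3-only activator of death, gave 822, 4371, 986 and 682, and Mcl1 gave 13595, 14136, 21348 and 18998. Ccnd2, a D cyclin that opens the cell cycle, gave 22847, 935, 898 and 3698, with 7 probe sets on the same side, and the survival kinase Pim2 gave 13072, 309, 52.3 and 541. Ccnd1 went the other way at 995, 4516, 658 and 1499, as did the inhibitor Cdkn1c at 66.8, 1250.1, 91.8 and 155. The list of D cyclins, CDK4/6 and CDK inhibitors gave 3 and 2 of 14, with a median of 0.56. Its members Cdk6, at 16536, 10463, 6940.1 and 9784, and Ccnd3, at 4130.0, 5651, 14061 and 15139.5, lay within 2-fold. For proliferation, none of 29 measured S-phase genes was higher on the array labelled proB ALL and 3 were on the B/T BAL array (Cdc45, Uhrf1 and Cdt1), with a median of -0.41. For G2/M genes the counts were 0 and 2 of 29 (Bub1b and Aurka), with a median of -0.59. With the hybridisation controls as scale, 20 of 29 S-phase and 18 of 29 G2/M genes were higher on the array labelled proB ALL. None of either list was then higher on the B/T BAL array, and the medians became 1.33 and 1.13. Ribosome biogenesis factors held no gene past 2-fold among 29, with a median of 0.16. On the scale of the hybridisation controls, 28 of these were higher on the array labelled proB ALL. Myc gave 5373, 9292, 521 and 2774, above both other arrays on each leukemia.

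Genes of the fusion partners lay mostly within 2-fold on the deposited scale. Of 24 measured genes for MLL, AF4 and their complex partners, 3 were at least 2-fold higher on the array labelled proB ALL and 1 on the B/T BAL array, with a median of -0.27. With the hybridisation controls as scale, 20 of 24 were higher on the array labelled proB ALL and none on the B/T BAL array. Kmt2a gave 2869, 4001, 1659.5 and 1160.0 and Aff1 2004, 4263, 5091 and 4329. Whether these probe sets also read the transduced fusion is not given in the sources used here. Mllt3 (AF9), a frequent fusion partner, gave 1133, 365, 215 and 1046, and the histone methyltransferase Dot1l 463, 907, 606 and 889. Among Hox genes and TALE cofactors 8 of 23 on the array were measured, 1 higher on the array labelled proB ALL and 3 on the B/T BAL array, with a median of -0.64. Of the 8, 1 was above the floor on the array labelled proB ALL alone and 3 on the B/T BAL array alone, through which they passed. Among the genes past 2-fold, only Pbx3 was above the floor on both arrays, and Hoxa5 was just above it on the B/T BAL array. Over all 23 genes with no floor, the counts were 1 and 4, with a median of -0.29. Pbx3 gave 239, 2653, 843 and 948, with a second probe set at 73.1 and 882. Hoxa9, a hallmark target of MLL fusions, gave 171, 269, 319.8 and 743, Hoxa5 42.1, 192, 695 and 72.1 and Hoxb3 490.0, 74.7, 313 and 271. The difference of Hoxa5 turned to 0.39 without probe sets marked for cross-hybridisation. In the same list, Hoxa7, Hoxa10 and Meis1 were below the floor on both arrays. Polycomb and DNA methylation enzymes gave 0 and 4 of 22 and a median of -0.09. Of these Cbx2, a reader of the polycomb mark, gave 499, 1815, 53.9 and 807. The demethylase Kdm6b gave 945, 3039, 1938 and 1787, and another probe set for it went the other way at 2156 and 939.7.

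Genes of other marrow cells moved with the comparison. Late neutrophil genes were higher on the B/T BAL array in 16 of 18 measured and in none on the other, with a median of -1.83. On the scale of the hybridisation controls, 2 of 18 were past 2-fold toward the B/T BAL array and none toward the other, with a median of -0.11. Ltf (lactoferrin) gave 2689.9, 24786, 74360.1 and 42139 and Ngp 18229.9, 71421, 96357 and 57676. Both leukemia arrays were below the mixed lineage array, and summed signals of the 6 neutrophil markers were 78266 on the array labelled proB ALL, 249818 on B/T BAL, 468030 on mixed lineage and 280942 in normal marrow. Monocyte genes were divided, 4 and 5 of 19, with a median of -0.32. Macrophage genes gave 6 of 14 higher on the array labelled proB ALL and 1 on the other, among them C1qa at 4106, 1421, 443 and 6048 and Cd163 at 693, 78.2, 481 and 2084. Of the 14, 3 were above the floor on the array labelled proB ALL alone. Erythroid genes were low on both, 1 and 7 of 19 past 2-fold, Alas2, for heme synthesis, giving 183, 467, 263 and 39547. Of the 19, 6 were above the floor on the B/T BAL array alone and 1 on the array labelled proB ALL alone, through which they passed. The erythroid median of -0.65 turned to 1.15 on the scale of the hybridisation controls. Stroma and endothelial genes were higher on the B/T BAL array in 15 of 18 and on the other in 1, with a median of -1.38 that turned to 0.35 on the scale of the hybridisation controls. Of the 18, 3 were above the floor on the B/T BAL array alone. Pdgfrb, the PDGF receptor of mesenchymal cells, gave 459, 30356, 461 and 427, and collagen Col1a2 1285, 38648, 826 and 2397, while Col1a1, which pairs with it in type I collagen, gave 252, 655, 400.4 and 624 and Cdh5 of endothelium stayed below the floor at 138 against 179. The part of neutrophils and stroma in the differences of other gene groups was not tested.

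Ribosomal proteins and the brightest genes leaned toward the B/T BAL array. Of 42 measured cytosolic ribosomal proteins, 19 were at least 2-fold higher there and 1 on the array labelled proB ALL, with a median of -0.94, which became -0.01 after quantile normalization and 0.80 on the scale of the hybridisation controls. Rps29 gave 49548, 129760.0, 85461 and 58303 and Rplp0 47255, 110895, 72361 and 52813. The exception was Rps25 at 11723, 2262, 3834 and 2717. All 72 genes with a mean signal above 40000 had a median of -0.88, and the 39 of them that are no ribosomal protein had -0.75. The brightest probe set read 65527 on the array labelled proB ALL and 129760 on the B/T BAL array, so the upper ends of the scales differed. Oxidative phosphorylation subunits gave 0 and 4 of 42, with a median of -0.38, and Atp5b, of ATP synthase, had the largest difference at 17607, 46957, 15425 and 24916. With the hybridisation controls as scale, the median of these subunits became 1.35.

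Among genes above the floor on both arrays, those with the largest differences held further killer cell and surface genes. On the array labelled proB ALL these were Ms4a4b, a four-span membrane protein of T and NK cells, at 34673, 200.3, 2359.6 and 3077, Ctla2a, a cathepsin inhibitor, at 18624, 336, 481 and 1664, the thrombin receptor F2r at 24853, 603, 1239.9 and 1751 and the sulfatase Arsb at 30477, 572, 10102 and 11737. On the B/T BAL array they were Cym, a stomach protease, at 549, 41625, 63.6 and 27.5, Endou, an endoribonuclease, at 542, 21947, 80.0 and 236, Phlda1 at 411, 22643, 7143 and 809, Col27a1 at 237, 16927, 173 and 299 and Chdh at 335, 12031, 2441 and 1946. Cym, Endou and Col27a1 were low on all other arrays, while Phlda1 was also bright in the mixed lineage leukemia. Among genes at or below the floor on the array labelled proB ALL, the Hedgehog transducer Smo gave 79.1, 9694, 62.8 and 427, the neurotrophic receptor Gfra1 184, 12185, 157 and 485, Syt13 43.2, 11393, 135 and 118 and Upk1b 113, 7015, 255 and 8.54. In the opposite set, Gimap3, a GTPase of lymphocyte survival, gave 8278, 147, 324 and 1413 and Sulf2 12458, 179.8, 3578 and 3284. The Sulf2 probe set is marked for cross-hybridisation. Its difference of 5.76 fell to 1.91 without such probe sets and to 4.22 over the mean of probe sets.

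This pair was also set beside the other arrays, as description. The genes counted here were picked for a difference within the pair, which by itself favours the highest or lowest place among the arrays. The same share over all measured genes was not computed, so the counts do not place the differences in 1 leukemia. Of the 1380 genes higher on the array labelled proB ALL, 421 were also at least 2-fold above both other arrays on it, and for 519 the B/T BAL array was at least 2-fold below both others, with 57 in both sets and 497 in neither. Of the 1991 genes higher on the B/T BAL array, 703 were at least 2-fold above both others there, and for 426 the array labelled proB ALL was at least 2-fold below both, with 33 in both sets and 895 in neither. The dimmer signal was at or below the floor in 389 and 849 of these genes. Where a second probe set was measured, it was at least 2-fold on the same side in 345 of 632 genes higher on the array labelled proB ALL and 399 of 698 higher on B/T BAL, and at least 2-fold on the opposite side in 16 and 10.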

How the data were processed

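Total RNA of 4 mouse samples was measured on Affymetrix expression arrays, 1 array a group. The authors deposited 1 intensity per probe set on a linear scale, produced by MAS5 according to the submitters' processing notes, whose version and settings these sources do not state. Each array had a trimmed mean of 1000 when 2% of probe sets were dropped at either end. Of 45101 probe sets, 64 controls were left out, and of the others 34945 carried 1 gene symbol in the platform annotation, 932 several and 9160 none there; those with several or none were not used. Of the first, 34741 matched the RefSeq gene table by gene identifier, and no symbol changed.

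Each gene was represented by its probe set of highest mean log2 over the 4 arrays. Signals were compared as log2(signal + 51.4), 51.4 being the 25th percentile of signals, with a floor of 189, their median. Such differences understate the fold of dim genes. No test was made, and called means past 2-fold (or 8-fold) in 1 pair of arrays. Lists were described by counts and medians of measured genes. The members and the 45 gene lists were chosen with earlier results of these data known. Named genes were the 12 with the largest difference in each direction above the floor on both arrays, the 12 with the brightest signal in each direction at or below it on the other, up to 4 genes of each list by size of difference, more where members are described by role, and cell type markers. A gene whose other probe sets differed by at least 2-fold in the opposite direction is named as such.

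Promoter windows were taken from RefSeq on GRCm38.p6. Alternatives changed the pseudocount, floor, scale, probe set rule and cross-hybridising probe sets. The code was run on simulated arrays with small noise and known changes in genes well above the floor. That run checked the code only and does not measure the error of these arrays. Python 3.11.15, pandas 2.3.3, NumPy 2.4.6 and Matplotlib 3.10.9 were used.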

Additional observations from a re-analysis of the deposited data

How the results depend on the processing

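Counts of genes past 2-fold stayed within 1.5 times of 1380 and 1991 under the alternatives tried, except that a floor at the 75th percentile of signals left 1144 genes higher on the B/T BAL array, and that the hybridisation controls as scale gave 8765 and 297 genes. Of the 17 gene lists with a median past 2-fold, 17 kept its sign and 13 stayed past 2-fold under every alternative planned. Medians that moved by 0.48 or more, the median deviation of second probe sets, were as follows. With the floor at the 75th percentile they were -2.44 for Notch genes, -1.05 for gamma delta T-cell genes, -0.52 for early B-cell genes, 1.06 for B-lineage transcription factors, 2.77 for mature B-cell genes, -1.16 for blood stem and progenitor genes, 1.36 for megakaryocyte genes and -2.41 for eosinophil, basophil and mast cell genes. A floor at the 25th percentile gave -0.54 for early B-cell genes and -1.21 for eosinophil, basophil and mast cell genes. With no floor they were -1.79 for the CD3 complex, 1.59 for granzymes and perforin, 2.78 for NK receptors, -0.54 for early B-cell genes, 0.04 for cytokines and chemokines and -0.75 for eosinophil, basophil and mast cell genes. Signals raised to the floor gave -1.38 for Notch genes and -1.03 for eosinophil, basophil and mast cell genes. A pseudocount at the 50th percentile gave 3.90 for NK receptors, 1.18 for mature B-cell genes, 1.13 for dendritic cell genes and -1.08 for eosinophil, basophil and mast cell genes, and one at the 10th percentile gave 3.03 for granzymes and perforin. The mean over probe sets gave -1.02 for early B-cell genes and -0.04 for B-lineage transcription factors, leaving out cross-hybridising probe sets gave -0.91 for early B-cell genes, and quantile normalization gave -0.01 for ribosomal proteins. The floor and pseudocount act on dim genes by construction; the cause of the other shifts was not tested.

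Of 189 named genes, 179 were past 2-fold, of which 176 kept their sign and 149 stayed past 2-fold under every alternative planned. Those that turned were Aff3, at -0.04 over the mean of its probe sets, and, without cross-hybridising probe sets, Hoxa5 at 0.39 and Kdm6b at 1.16. No paired analysis was possible because each group held 1 array and the labels give no replicate numbers, and no array could be left out for the same reason. Signals near the floor limit the precision of dim genes: 389 of 1380 and 849 of 1991 genes had their dimmer signal at or below it.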

Other observations

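Immediate-early genes, which respond to stimulation and to tissue handling, went both ways, 7 of 24 measured being at least 2-fold higher on the array labelled proB ALL and 6 on the B/T BAL array, with a median of -0.67. Fos gave 1007, 6099, 32385 and 6749, Dusp1 1689, 6161, 19888 and 5441 and the mRNA decay factor Zfp36 1261, 8277, 9313 and 6183, higher on the B/T BAL array. Cd69, an activation marker of lymphocytes, gave 3555, 248, 1156 and 495 and Nr4a2 1264, 251, 275 and 165, higher on the array labelled proB ALL. Heat shock chaperones lay within 2-fold in 13 of 15, the exceptions being Hspa1b at 192, 5058, 5983 and 662 and Hspa1a at 48.6, 242, 759.7 and 175. With the hybridisation controls as scale, 12 of 14 measured were higher on the array labelled proB ALL and 1 on the B/T BAL array. Of 19 glycolysis genes, 3 were higher on the array labelled proB ALL, among them the phosphofructokinase Pfkp at 14015, 3772, 3976 and 1765, and 2 on the B/T BAL array, among them Ldhb at 429, 1958, 2628 and 2536.

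Smaller lists gave few measured genes. Sox13, a factor of gamma delta T cells, gave 87.9, 1580.0, 879 and 249 and Maf 1717, 227, 747 and 1803. Plasma cell genes gave 3 of 11 in each direction, with Sdc1 (CD138) at 254, 1314, 105 and 473 and Xbp1 at 18796, 11265, 25422 and 16279. Of 6 measured eosinophil, basophil and mast cell genes, 4 were higher on the B/T BAL array, with a median of -1.73 that became -0.41 on the scale of the hybridisation controls, among them the mast cell protease Cpa3 at 439.5, 2567, 7222 and 2559. Of the 6, 2 were above the floor on the B/T BAL array alone. Among 11 megakaryocyte genes 3 and 1 were past 2-fold, with Pf4 at 883, 738, 531 and 10077. Blood stem and progenitor genes gave 3 and 5 of 14, with Kit at 1366, 201, 2061 and 2413 and Gfi1 at 1474, 5688, 4066 and 2039. In the primary granule list of neutrophils, 2 and 3 of 12 were past 2-fold, Elane at 2058, 2699, 32120.3 and 20277 being within it. In the Myc network, 1 and 3 of 11 were past 2-fold, with Max at 1486, 519, 2462 and 2442 and Mxd4 at 2084, 5230.0, 1990.4 and 1817.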
